A study of Mus musculus with 12 samples.

Results

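The 42 genes described here encode the contractile apparatus of skeletal muscle, the calcium system that triggers it and the enzymes that fuel it, and they were measured in mammary tissue of pregnant mice. They were taken by gene symbol from the platform's annotation, with the probe set of highest mean over the 12 arrays standing for each gene. A probe set was found for 42 of 42 genes, among 18194 genes with a probe set in all. Of the 42, 38 had a mean signal at or above log2 6.05, the 30th percentile of all probe sets, and entered the tests with 14194 genes in total. The other 4, Myh2, Neb, Cacna1s and Sln, lay under this level and are given as values. By role, 14 genes belong to fast fibres, 6 to slow fibres, 9 to the sarcomere of both, 5 to calcium handling and 8 to energy supply.

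Muscle contracts when calcium released from the sarcoplasmic reticulum binds troponin on the thin filament and frees actin for the myosin motors. Fast and slow twitch fibres build the same machine from different gene copies: each has its own troponin C, I and T, its own myosin heavy chains and its own share of calcium-storing calsequestrins. Fast fibres also lean on creatine phosphate and glycogen, while slow fibres hold more myoglobin. The mammary gland lies between the skin, with its thin sheet of muscle, and the body wall, and its own contractile cells, the myoepithelium, use smooth muscle genes.

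The study varied the number of working alleles of Stat5a and Stat5b, transcription factors that act downstream of the prolactin receptor, and tissue of 3 mice per genotype was taken 6 days after a mating plug. Mice labelled Stat5a-/- had 0 intact Stat5a and 2 intact Stat5b alleles, and mice labelled Stat5ab+/null had 1 of each. Mice labelled Stat5abnull/Stat5b-, called single-Stat5a here, were read as having 1 intact Stat5a allele and 0 of Stat5b, and mice labelled Stat5abnull/Stat5a-, called single-Stat5b, the reverse. All 4 genotypes had a background mixed from the strains C57BL/6, FVB and 129, and each lacked at least 1 working Stat5 allele, so no group here was wild type. The labels' description speaks of sorted cells and their treatment text of an injection that activates an Mx1-Cre transgene, whereas the series design names whole mammary tissue; the design was followed, and an injection of these animals is neither stated nor denied. Titles of the Stat5a-/- samples contain ABB and those of the Stat5ab+/null samples AAB; read as counts of alleles, these letters would go against the genotype labels, which were followed. Arrays are numbered 1 to 3 within a genotype in record order, and nothing in the labels orders them.

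The tissue label was checked against 12 genes of luminal mammary epithelium, whose mean ranged from log2 10.42 to 11.70 over the arrays and was lowest in single-Stat5a 2. Not all of them were high: Wap read 5.82 to 6.78 in the 12 arrays. Cldn4 read 10.71 to 11.09 in the arrays of Stat5a-/- and Stat5ab+/null but 4.80 to 6.86 in those of the single-allele genotypes. The difference between 3' and 5' control signal of beta-actin was 0.13 to 0.27 log2 in the 6 arrays of Stat5a-/- and Stat5ab+/null and 2.16 to 3.78 in the 6 of the single-allele genotypes. These 2 sets, called the 2-allele and the 1-allele set, could therefore not be told apart from the number of intact alleles, and levels were compared within a set; the interaction sets the difference found in one set against that in the other. In such bulk tissue, fewer muscle cells in a sample and less RNA per muscle cell cannot be told apart.

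The bases just upstream of the annotated start of 5 of the genes are shown because these genes carry the main patterns below: the skeletal actin and a fast myosin (Acta1, Myh4), a fast and slow troponin C pair that parted (Tnnc2, Tnnc1) and the gene that passed the test (Phkg1). Windows come from RefSeq on the mouse build GRCm38.p6 and were found for 30 of the 42 genes. Each line gives 120 bases, 5' to 3' on the gene's strand, ending at the base before the start. Capitals mark an E-box (CANNTG, the letters bound by the myogenic MyoD family), a TATAAA box or a CArG box (the element of serum response factor).
Acta1, chr8:123894776-123894895, minus strand: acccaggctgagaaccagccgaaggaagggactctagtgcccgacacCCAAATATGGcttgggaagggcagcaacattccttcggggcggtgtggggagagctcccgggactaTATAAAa
Myh4, chr11:67237692-67237811, plus strand: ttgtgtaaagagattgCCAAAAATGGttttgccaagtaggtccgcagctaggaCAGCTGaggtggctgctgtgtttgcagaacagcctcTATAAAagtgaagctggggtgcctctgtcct
Tnnc2, chr2:164779735-164779854, minus strand: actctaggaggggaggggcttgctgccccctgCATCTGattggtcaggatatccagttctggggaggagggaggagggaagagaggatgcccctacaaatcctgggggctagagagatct
Tnnc1, chr14:31208192-31208311, plus strand: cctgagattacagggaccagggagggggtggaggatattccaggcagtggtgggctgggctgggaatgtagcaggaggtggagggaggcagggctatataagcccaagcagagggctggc
Phkg1, chr5:129879089-129879208, minus strand: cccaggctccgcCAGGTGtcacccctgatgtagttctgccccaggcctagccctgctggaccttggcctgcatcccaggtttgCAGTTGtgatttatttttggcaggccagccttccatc

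In Acta1 the CArG box began 73 bases before the start, and in Myh4 104 bases before it. The E-box of Tnnc2 began 88 bases before the start, those of Phkg1 108 and 37 bases before it, and the letters searched were not in this window of Tnnc1. Over the 250 bases upstream of each start and both strands, 4 of the 36 member windows (11.1%) held a CArG box, in Acta1, Myh4 and 2 windows of Ldb3, against 1.47% of 32851 windows of all genes. A MEF2-type motif, searched as CTANNNNTAG, stood in 3 windows (8.33%), of Ldb3, Smpx and Ttn, against 3.20%. E-boxes were common everywhere, in 80.6% of member windows and 66.2% of all, and TATAAA in 13.9% and 12.4%. Matches were counted per motif, overlaps between motifs included, and a match describes the letters of a window and no binding there.

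Muscle signal varied widely between mice of one genotype. In the 1-allele set, 37 of the 42 genes were highest in single-Stat5a 2 (14.9% of all genes with a probe set were highest there), and single-Stat5b 3, a mouse of the opposite genotype, was second for 22 of these 37. The mean of the 42 genes was log2 8.92, 11.56 and 8.24 in single-Stat5a 1, 2 and 3 and 7.09, 7.37 and 9.09 in single-Stat5b 1, 2 and 3. Between its highest and its lowest array in this set, the median member spanned 5.26 log2 units and the median gene 0.87. A span above 4 log2 units was found for 29 of the 42 genes and for 0.599% of all genes.

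The 2-allele set was uneven between mice too. The mean of the 42 genes was 6.57, 6.60 and 8.28 in Stat5a-/- 1, 2 and 3 and 6.59, 7.61 and 6.53 in Stat5ab+/null 1, 2 and 3. Stat5a-/- 3 was the highest array for 35 genes (14.2% of all genes were highest there), and Stat5ab+/null 2 the second for 33, so each genotype held 1 mouse with clear muscle signal and 2 with little. Members spanned a median of 1.62 log2 units here, against 0.48 for all genes. Many of the low values lie near the array's floor: for 12 of the 42 genes, the 4 other arrays of this set were all under the filter level, which limits how large a span can appear.

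**Figure D1:**
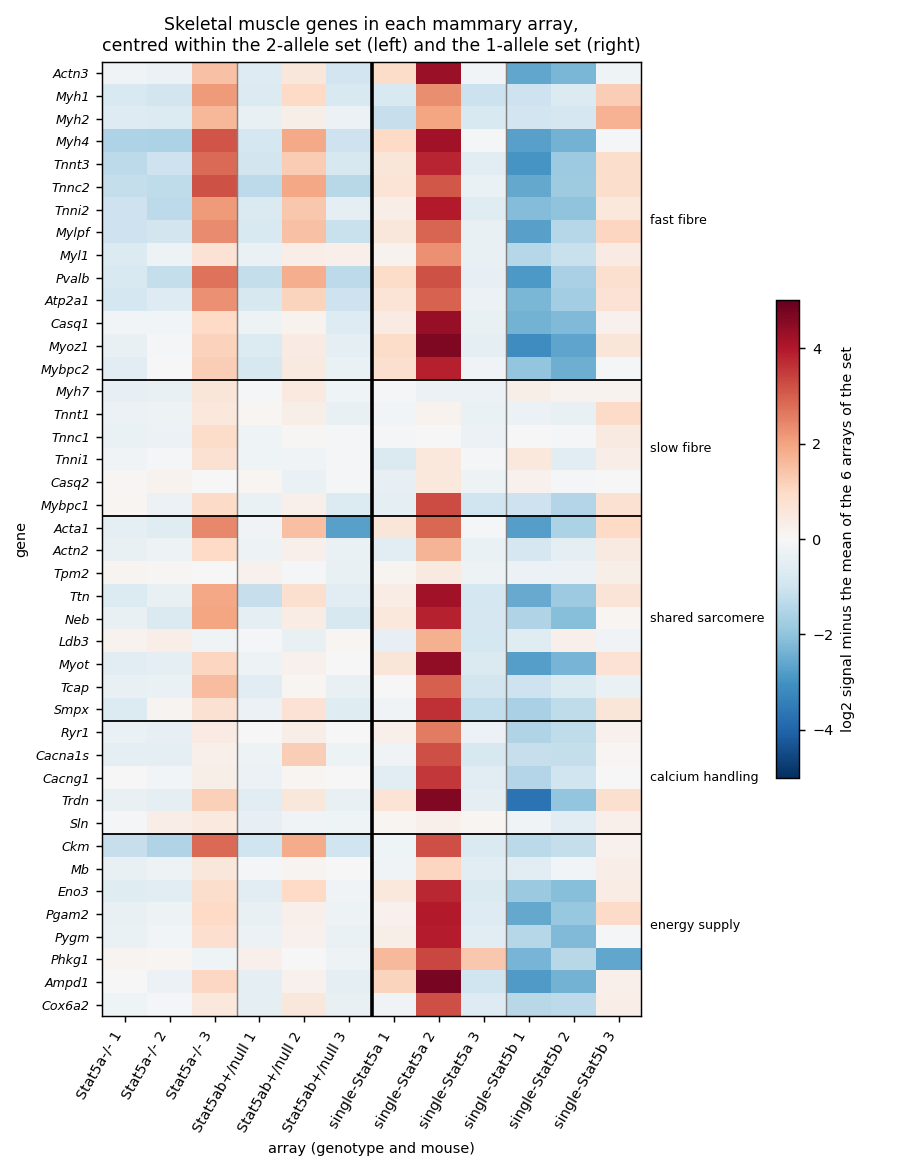
Log2 signal of the 42 muscle genes (rows, in blocks by role) in the 12 arrays (columns), each gene centred on its mean over the 6 arrays of its set; red is higher and blue lower. Single-Stat5a 2 was the highest array for 37 genes on the right and Stat5a-/- 3 for 35 on the left, while the slow fibre block is pale on the right apart from Mybpc1, and Phkg1 is red in all 3 single-Stat5a arrays.

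The fast fibre genes showed the pattern at its widest. Tnnc2, the calcium sensor of the fast thin filament, read 12.45, 14.85 and 11.44 in single-Stat5a 1, 2 and 3 and 9.20, 9.99 and 12.65 in single-Stat5b 1, 2 and 3. Its 2-allele values were 6.75, 6.67 and 11.11 in Stat5a-/- and 6.63, 9.87 and 6.55 in Stat5ab+/null. In both sets the genotypes overlapped, and 1 mouse of each genotype (1 of 3) stood above the others of its kind.

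Tnni2, the inhibitory subunit of fast troponin, read 9.84, 13.46 and 8.88 in the single-Stat5a mice and 7.32, 7.48 and 10.01 in the single-Stat5b mice, with 5.96, 5.69 and 9.14 in Stat5a-/- and 6.28, 8.35 and 6.56 in Stat5ab+/null. Tnnt3, which anchors fast troponin to tropomyosin, read 10.95, 14.12 and 9.78 against 7.40, 8.52 and 11.21, with 5.15, 5.43 and 9.30 in Stat5a-/- and 5.54, 7.75 and 5.67 in Stat5ab+/null. The 3 fast troponins thus kept one order of mice in the 1-allele set, from single-Stat5a 2 at the top to single-Stat5b 1 at the bottom.

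Myh4, the myosin heavy chain of the fastest fibres, read 11.21, 14.42 and 10.14 in single-Stat5a and 7.52, 7.86 and 10.17 in single-Stat5b. In the 2-allele set it read 4.98, 4.91 and 9.66 in Stat5a-/- and 5.62, 8.40 and 5.49 in Stat5ab+/null. Actn3, the alpha-actinin of fast Z-discs, read 10.38, 13.75 and 9.31 in single-Stat5a and 6.83, 7.17 and 9.23 in single-Stat5b. Actn3 was 1 of 3 members whose 1-allele genotypes did not overlap, by a margin of under 0.1 log2 units between single-Stat5a 3 and single-Stat5b 3. Its 2-allele values, 7.23, 7.10 and 8.85 in Stat5a-/- and 6.76, 7.94 and 6.44 in Stat5ab+/null, overlapped.

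Pvalb, the cytosolic calcium buffer of fast fibres, read 12.04, 14.33 and 10.74 in single-Stat5a and 8.26, 9.52 and 11.95 in single-Stat5b, and 6.78, 6.35 and 10.27 in Stat5a-/- and 6.35, 9.36 and 6.25 in Stat5ab+/null. Atp2a1, the calcium pump that relaxes fast fibres, read 11.28, 13.54 and 10.33 in single-Stat5a and 8.31, 8.85 and 11.32 in single-Stat5b, and 6.67, 6.90 and 9.84 in Stat5a-/- and 6.75, 8.66 and 6.54 in Stat5ab+/null. Casq1, the calsequestrin of fast fibres, read 8.86, 12.83 and 8.07 in single-Stat5a and 6.08, 6.25 and 8.66 in single-Stat5b, and 7.43, 7.43 and 8.57 in Stat5a-/- and 7.31, 7.73 and 6.90 in Stat5ab+/null. These calcium genes again put single-Stat5b 3 near or above single-Stat5a 1 and 3, and far above the other single-Stat5b mice.

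The order of the 2 mice behind single-Stat5a 2 depended on the myosin. For Myh4 the second array was single-Stat5a 1, as for Actn3, Mybpc2 and Myoz1. For Myh1, the heavy chain of intermediate fast fibres, the second was single-Stat5b 3, with 7.78, 10.89 and 7.49 in single-Stat5a and 7.51, 7.88 and 9.78 in single-Stat5b. Myh2, the heavy chain of oxidative fast fibres, read 5.00, 8.10 and 5.39 in single-Stat5a and 5.16, 5.30 and 7.86 in single-Stat5b, so that single-Stat5b 3 came close to single-Stat5a 2. The 3 genes are near-identical copies on chromosome 11, and probe sets of these myosins may share signal, so their separation is uncertain; the Myh1 probe set is of the kind that Affymetrix marks as able to read related transcripts.

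The slow fibre genes moved far less than the fast ones. Averaged after centring each gene within the set, they were highest in the same 2 mice, at 0.69 in single-Stat5a 2 and 0.45 in single-Stat5b 3 against -0.40 to -0.05 in the other 4. The 0.69 rests largely on Mybpc1, which read 11.04 in single-Stat5a 2 and 6.33 to 8.54 elsewhere in the set. Myh7 was lowest in that mouse, at 5.75. Tnnc1, the troponin C of slow fibres, read 7.88, 7.97 and 7.70 in single-Stat5a and 7.99, 7.88 and 8.43 in single-Stat5b, a span of 0.73 log2 units where that of Tnnc2 was 5.65. Its values were 6.79, 6.85 and 8.04 in Stat5a-/- and 6.93, 7.19 and 7.04 in Stat5ab+/null, so in the 2-allele set it did peak in Stat5a-/- 3. Of the 6 slow fibre genes, 5 had their 2-allele peak in that mouse, against 2 of 6 with a 1-allele peak in single-Stat5a 2.

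Tnni1, the slow inhibitory subunit, read 4.97, 6.22 and 5.59 in single-Stat5a and 6.23, 5.18 and 6.02 in single-Stat5b, with 6.40, 6.46 and 7.31 in Stat5a-/- and 6.34, 6.37 and 6.47 in Stat5ab+/null. Tnnt1, the slow troponin T, read 7.36, 7.64 and 7.15 in single-Stat5a and 7.17, 7.10 and 8.45 in single-Stat5b, with 6.44, 6.49 and 7.28 in Stat5a-/- and 6.83, 7.02 and 6.35 in Stat5ab+/null. Its top mouse in the 1-allele set was single-Stat5b 3, as for Tnnc1. Myh7, the heavy chain of slow fibres and of heart, read 5.99, 5.75 and 5.75 in single-Stat5a and 6.37, 6.24 and 6.25 in single-Stat5b, with 5.77, 5.78 and 6.78 in Stat5a-/- and 6.06, 6.66 and 5.97 in Stat5ab+/null. Myh7 was the 1 member that lay higher in every single-Stat5b mouse than in any single-Stat5a mouse, by a small amount and close to the filter level.

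Casq2, the calsequestrin of slow fibres and heart, read 8.02, 8.95 and 8.18 in single-Stat5a and 8.63, 8.31 and 8.42 in single-Stat5b, with 8.17, 8.29 and 8.15 in Stat5a-/- and 8.22, 7.79 and 8.06 in Stat5ab+/null. It was flat in both sets. Mybpc1, the slow myosin-binding protein C, was the exception among the 6: it spanned 4.71 log2 units in the 1-allele set and peaked in single-Stat5a 2 at 11.04.

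**Figure D2:**
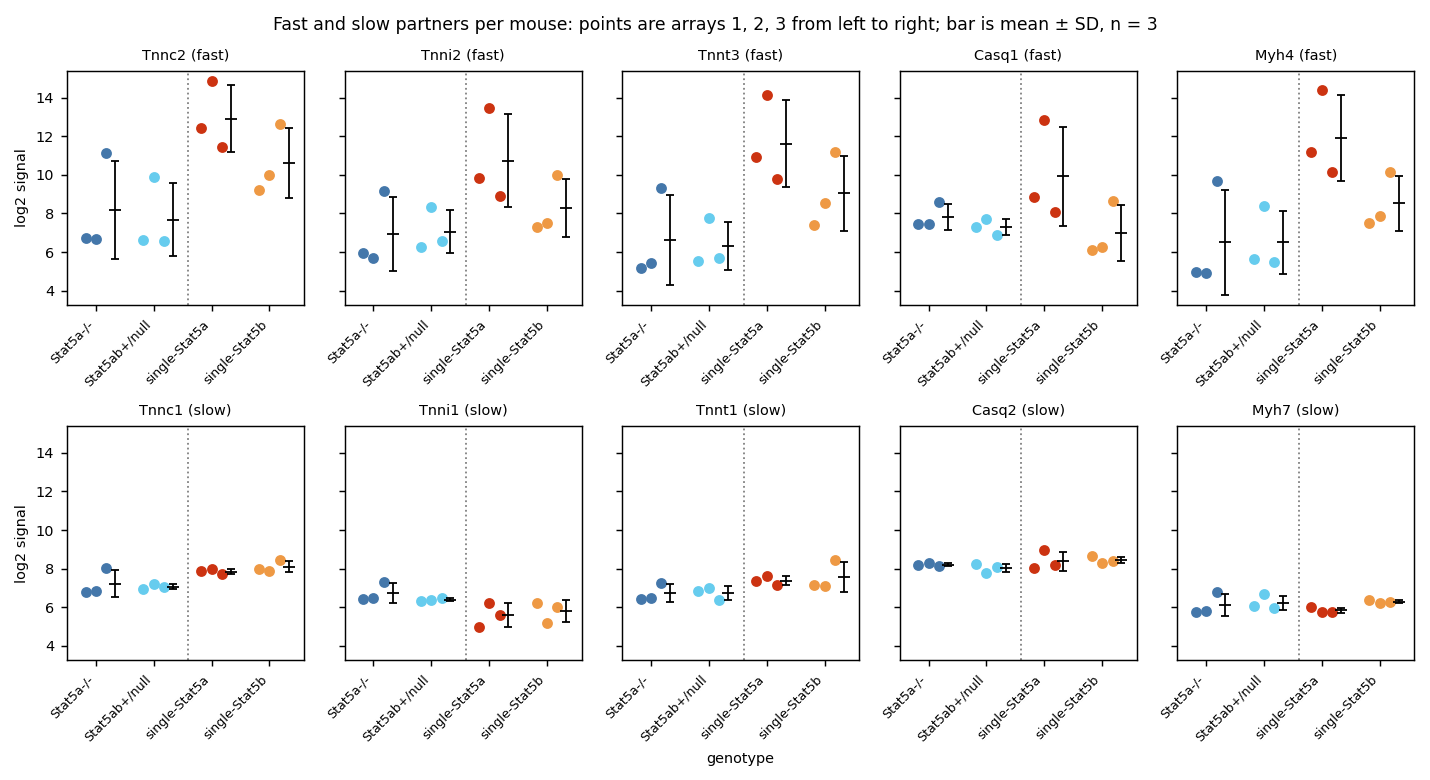
Log2 signal of 5 fast genes (top) and their slow partners (bottom) by genotype; each point is 1 mouse, the bar is the mean ± SD (n = 3), and the dotted line parts the 2-allele from the 1-allele set. In the 1-allele set the genes of the top row span 5.65 (Tnnc2) to 6.90 (Myh4) log2 units and those of the bottom row 0.62 (Myh7) to 1.36 (Tnnt1).

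Levels of different probe sets cannot be set against each other, so each gene was centred within its set before fast and slow genes were averaged. The fast mean minus the slow mean was 0.75, 2.73 and -0.05 in single-Stat5a 1, 2 and 3 and -2.22, -1.39 and 0.17 in single-Stat5b 1, 2 and 3. Single-Stat5b 3 lay above single-Stat5a 3, so the genotypes overlapped. The slow mean of single-Stat5a 2 in these values rests largely on Mybpc1. The genotype means were 1.14 ± 1.43 and -1.14 ± 1.22 (SD, n = 3), a difference of -2.29, with no test since the genes were chosen with results of these data known. In the 2-allele set the values were -0.62, -0.55 and 1.37 in Stat5a-/- and -0.63, 0.91 and -0.49 in Stat5ab+/null, and the 2 mice above 0 were those with high muscle signal.

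Single-Stat5a 1 and single-Stat5b 3 stood close for fast genes, with centred means of 0.44 and 0.62. For slow genes they stood at -0.31 and 0.45. Single-Stat5b 1, lowest for fast genes at -2.27, had slow genes at -0.05, above 3 of the other mice.

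**Figure D3:**
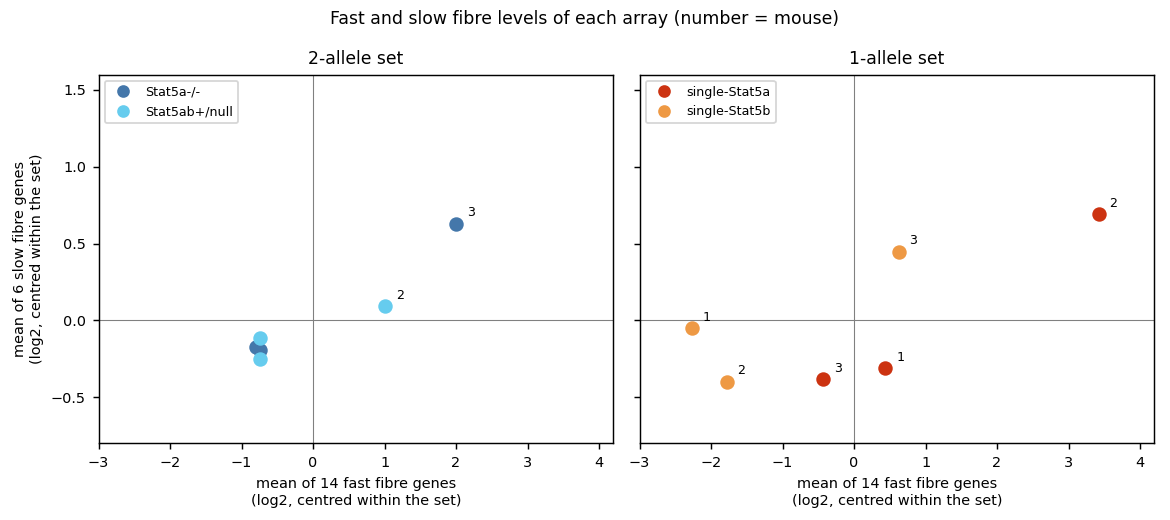
Mean of the 14 fast fibre genes (x axis) against the mean of the 6 slow fibre genes (y axis) in each array, in log2 units, each gene centred within its set of 6 arrays; numbers name the mouse. In the 2-allele set the points rise together from 4 arrays at fast levels of -0.79 to -0.74 to Stat5a-/- 3 at 2.00 and 0.63. In the 1-allele set single-Stat5a 1 and single-Stat5b 3 lie at near fast levels and different slow levels, and the slow level of single-Stat5a 2 rests largely on Mybpc1.

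Among the 9 genes of the sarcomere of both fibre types, Acta1, the actin of the skeletal thin filament, read 11.92, 14.17 and 11.20 in single-Stat5a and 8.57, 9.72 and 12.30 in single-Stat5b. Its 2-allele values were 8.76, 8.62 and 11.62 in Stat5a-/- and 9.06, 10.73 and 6.52 in Stat5ab+/null, where mouse 3 lay over 2 log2 units under every other array of its set. Ttn, the giant spring that spans the sarcomere from Z-disc to M-line, read 8.33, 12.15 and 7.10 in single-Stat5a and 5.46, 6.13 and 8.59 in single-Stat5b, with 5.99, 6.28 and 8.58 in Stat5a-/- and 5.52, 7.45 and 6.13 in Stat5ab+/null. Of the other 7 sarcomere genes, Neb, Myot, Tcap, Smpx and Actn2 followed the same mice, with 1-allele spans of 2.54 (Actn2) to 7.20 (Myot) log2 units.

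Tpm2 and Ldb3 did not follow them in every probe set. Tpm2, a tropomyosin shared with smooth muscle and myoepithelium, read 13.42, 13.72 and 13.02 in single-Stat5a and 12.97, 12.98 and 13.56 in single-Stat5b, with 12.55, 12.49 and 12.39 in Stat5a-/- and 12.65, 12.38 and 12.07 in Stat5ab+/null. A further Tpm2 probe set spread from 6.46 in Stat5ab+/null 3 to 13.96 in single-Stat5a 2. Ldb3, a Z-disc protein, read 9.14, 11.30 and 8.66 in single-Stat5a and 8.95, 9.81 and 9.36 in single-Stat5b, with 8.20, 8.37 and 7.84 in Stat5a-/- and 7.98, 7.67 and 8.11 in Stat5ab+/null. A further Ldb3 probe set spread from 5.74 in Stat5ab+/null 1 to 11.90 in single-Stat5a 2 and was low in the same mice as the fast genes.

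The 5 genes of calcium handling ranged widely in how much they moved. Trdn, the triadin that ties calcium stores to the release channel, had the widest 1-allele span of all 42, 8.32 log2 units, and Ryr1, the release channel itself, spanned 4.10. Cacna1s, the voltage sensor of the surface membrane, read 6.12, 9.51 and 5.52 in single-Stat5a and 5.17, 5.11 and 6.40 in single-Stat5b, with 5.24, 5.23 and 5.98 in Stat5a-/- and 5.47, 6.94 and 5.47 in Stat5ab+/null. Its companion subunit Cacng1 spanned 5.03 in the 1-allele set. Sln, a small inhibitor of the calcium pump, read 4.96, 5.13 and 4.97 in single-Stat5a and 4.70, 4.31 and 5.14 in single-Stat5b, with 5.53, 5.93 and 6.07 in Stat5a-/- and 5.19, 5.43 and 5.38 in Stat5ab+/null. Sln was thus near or under the filter level everywhere and lay higher in each Stat5a-/- mouse than in any Stat5ab+/null mouse. Its second probe set overlapped, at 5.17, 5.16 and 4.95 in Stat5a-/- and 4.86, 5.01 and 5.08 in Stat5ab+/null.

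Of the 8 energy genes, Ckm, the muscle creatine kinase, read 8.16, 11.61 and 7.65 in single-Stat5a and 7.02, 7.20 and 8.60 in single-Stat5b, with 6.84, 6.48 and 10.82 in Stat5a-/- and 6.98, 9.87 and 6.98 in Stat5ab+/null. Mb, the oxygen-storing myoglobin, read 8.06, 9.30 and 7.68 in single-Stat5a and 7.68, 8.11 and 8.57 in single-Stat5b, with 7.99, 8.09 and 8.92 in Stat5a-/- and 8.24, 8.48 and 8.36 in Stat5ab+/null. The muscle mice led for both genes, by a narrow margin for Mb. For Ckm the margin was wide except in single-Stat5b 3, at 8.60 against 8.16 in single-Stat5a 1.

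Eno3, the enolase of muscle glycolysis, read 10.70, 13.96 and 9.48 in single-Stat5a and 8.35, 8.08 and 10.58 in single-Stat5b, with 8.23, 8.29 and 9.71 in Stat5a-/- and 8.32, 9.84 and 8.67 in Stat5ab+/null. Cox6a2, the respiratory chain subunit of heart and skeletal muscle, read 8.84, 12.23 and 8.36 in single-Stat5a and 7.65, 7.71 and 9.34 in single-Stat5b, with 7.59, 7.74 and 8.34 in Stat5a-/- and 7.30, 8.38 and 7.43 in Stat5ab+/null. Both peaked in Stat5ab+/null 2 in the 2-allele set, just above Stat5a-/- 3. Pgam2, Pygm and Ampd1, of glycolysis, glycogen breakdown and nucleotide cycling, spanned 6.13 (Pygm) to 7.59 (Ampd1) log2 units in the 1-allele set.

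Against this spread, the difference between single-Stat5b and single-Stat5a was tested with limma over all genes, 1 spread being shared by the 12 arrays. Of the 38 genes tested, 1 was called at an adjusted p under 0.05 (2.63%), where 2.18% of all genes tested were called: Phkg1, which was lower in single-Stat5b. At an unadjusted p under 0.05 stood 15 of 38 (39.5%) and 11.6% of all genes. Of all 42 genes, 37 had a difference below 0 and 5 above, where 48.4% of all genes were above 0; the median was -1.89 log2 units, against -0.01 for all genes. Both groups' values failed to overlap for 3 of 42 genes, Actn3 and Phkg1 (lower) and Myh7 (higher), or 7.14%, against 11.4% of all genes. The widest range within a genotype exceeded the difference for 40 of 42 genes, the exceptions being Myh7 and Phkg1, and for 94.1% of all genes.

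By role, the fast fibre genes were below 0 in 14 of 14 cases, with a median of -2.46 and 0 of the 13 tested called. Their largest differences were those of Myoz1, a Z-disc protein of fast fibres, at -3.42 ± 1.14 (SE, limma adjusted p = 0.206), Actn3 at -3.40 ± 0.96 (0.111) and Myh4 at -3.40 ± 1.35 (0.326). Myh1 at -0.33 ± 0.98 and Myh2 at -0.06 ± 0.89 were the smallest. The slow fibre genes were above 0 in 5 of 6 cases, with a median of 0.20 and 0 called, from Casq2 at 0.07 ± 0.23 to Myh7 at 0.46 ± 0.26 (limma adjusted p = 0.589), and Mybpc1 at -1.18 ± 0.89. The signs of Tnnt1, Tnni1 and Casq2 turned when 1 array was left out. The medians of the shared sarcomere, calcium and energy genes were -1.52, -1.66 and -2.37, with 9 of 9, 5 of 5 and 8 of 8 below 0. Of those tested, 0 of 8, 0 of 3 and 1 of 8 were called.

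Errors were wide for these genes. The median standard error of the 42 genes was 0.92 log2 units and that of all genes 0.22. Without single-Stat5b 3, 5 members were called (Actn3, Mybpc2, Myoz1, Trdn and Phkg1, among 6.32% of all genes), and without single-Stat5a 3, 3 (Actn3, Ampd1 and Phkg1, among 1.79%). Without single-Stat5a 2 the median difference of the 42 genes was -0.90 and 1 member was called.

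Stat5a-/- and Stat5ab+/null were compared in the same fit, as the pair with 2 intact alleles. Of 38 genes, 0 were called by limma and 0 had an unadjusted p under 0.05, where 1 gene in all (0.00705%) was called and 3.01% of all genes had such a p. Of 42 genes, 35 were above 0, against 37.6% of all genes, with a median of 0.24 log2 units (-0.06 for all genes), and without Stat5a-/- 3 that median was -0.23. Acta1 was highest at 0.90 ± 1.19 (SE) and Cacna1s lowest at -0.48 ± 0.82. The shared spread takes in the 1-allele arrays, where the median gene spanned 0.87 log2 units against 0.48 here, which can widen these errors. In a limma fit of these 2 groups alone, 0 members and 0.0141% of all genes were called. The groups overlapped for 41 of 42 genes, Sln being the exception, whereas they did not for 18.7% of all genes, and the widest range within a genotype exceeded the difference for 42 of 42 genes and 89% of all.

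**Figure D4:**
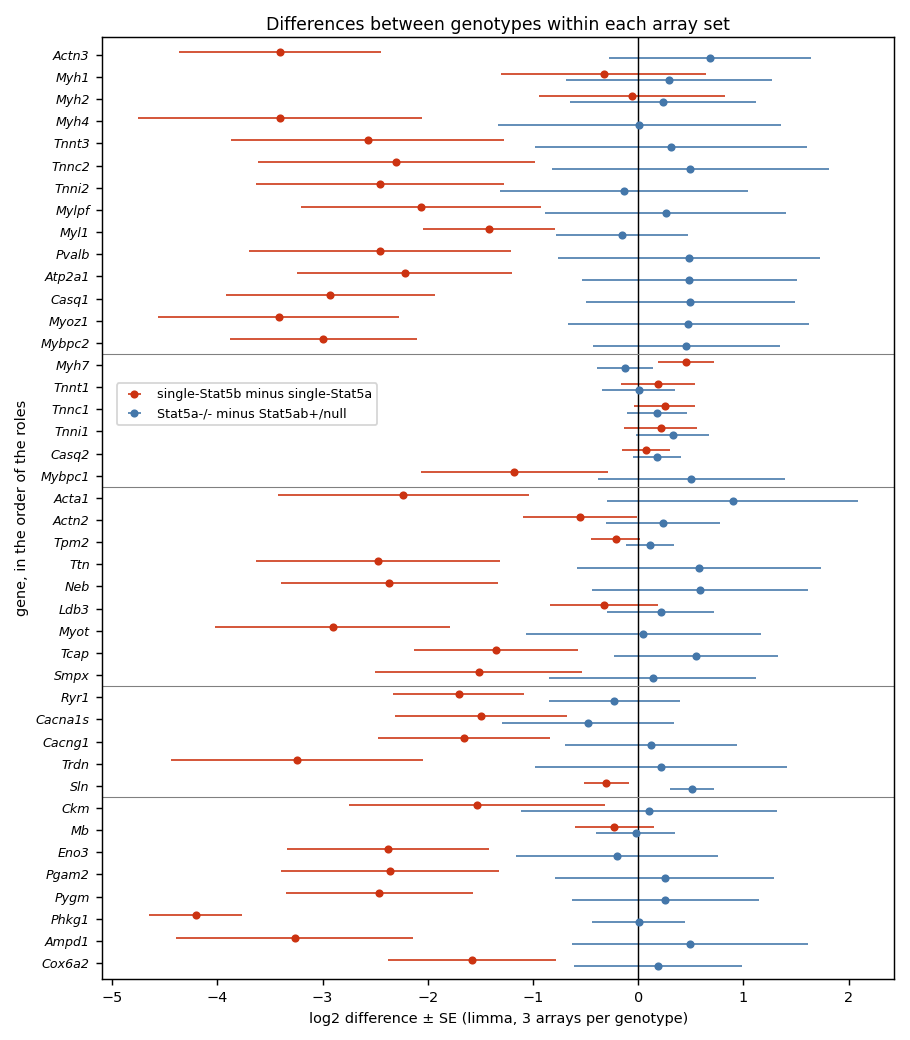
Log2 difference ± SE of each of the 42 genes, in the order of their roles, for single-Stat5b minus single-Stat5a (red) and Stat5a-/- minus Stat5ab+/null (blue), from limma with 3 arrays per genotype; the 4 genes under the filter come from the fit with no filter. Phkg1 is the red point farthest from 0 (-4.21) with a short bar, most other red points carry bars of about 1 unit, the slow fibre block lies at or right of 0 apart from Mybpc1, and the blue points lie between -0.48 and 0.90.

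Phkg1, the catalytic subunit of the phosphorylase kinase that starts glycogen breakdown in muscle, behaved otherwise than its neighbours in the list. It read 9.44, 11.18 and 9.18 in single-Stat5a 1, 2 and 3 and 5.50, 6.43 and 5.24 in single-Stat5b 1, 2 and 3. Every single-Stat5a mouse thus lay above every single-Stat5b mouse, and single-Stat5b 3, second highest for most muscle genes, was the lowest. In the 2-allele set it read 6.49, 6.45 and 6.15 in Stat5a-/- and 6.63, 6.33 and 6.12 in Stat5ab+/null, with Stat5a-/- 3, the peak of 35 other members, among the lowest.

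Mean Phkg1 signal was 9.93 ± 1.09 for single-Stat5a against 5.72 ± 0.62 for single-Stat5b (SD, n = 3 mice each). The difference was -4.21 ± 0.44 (SE, limma adjusted p = 0.000111) and was seen in 3 of 3 mice. Since 2 of the 3 single-Stat5b values lay under the filter level of 6.05, its size may be limited by low signal. Between Stat5a-/- and Stat5ab+/null it was 0.01 ± 0.44 (adjusted p = 1.000), and the interaction, the first difference minus the second, was -4.21 ± 0.62 (adjusted p = 0.00467). The 2-allele values, 6.12 to 6.63, lay close to the filter level of 6.05, which may limit how large the second difference could appear. The same probe set read lower, at 5.24, in single-Stat5b 3, and a floor was not tested. Phkg1 was the 1 of 38 members called in the interaction, where 0.775% of all genes were, and 7 of 38 had an unadjusted p under 0.05, against 7.23% of all genes.

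The second Phkg1 probe set gave 9.59, 11.57 and 9.88 in single-Stat5a and 4.50, 4.61 and 4.55 in single-Stat5b, a difference of -5.79, and 6.81, 6.81 and 6.35 in Stat5a-/- and 6.95, 6.47 and 6.89 in Stat5ab+/null. Both probe sets separated the single-allele genotypes, though the one used is also of the kind marked as able to read related transcripts. With the mean of 28 other muscle genes as a covariate, an alternative chosen after seeing the data, the Phkg1 difference was -3.51 (adjusted p = 0.000558) and it was again the 1 member called. With the same covariate 28 of the 38 members tested had a difference over 1.5 times smaller. Tnnc2 went from -2.30 to -0.53, Tnni2 from -2.46 to -0.28, Casq1 from -2.93 to -0.77 and Ttn from -2.47 to -0.17. The slow genes Tnnc1 and Tnni1 instead grew, from 0.25 to 0.43 and from 0.21 to 0.67. The median of the 13 fast members tested went from -2.46 to -0.63. Because the covariate is itself a mean of muscle genes, members that share its pattern shrink by construction. A cause of the differences was not tested by it. The 5 tested genes on each side of Phkg1 on chromosome 5 had differences of -0.43 (Vkorc1l1) to 0.57 (Sumf2) and 0 of these 10 were called.

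**Figure D5:**
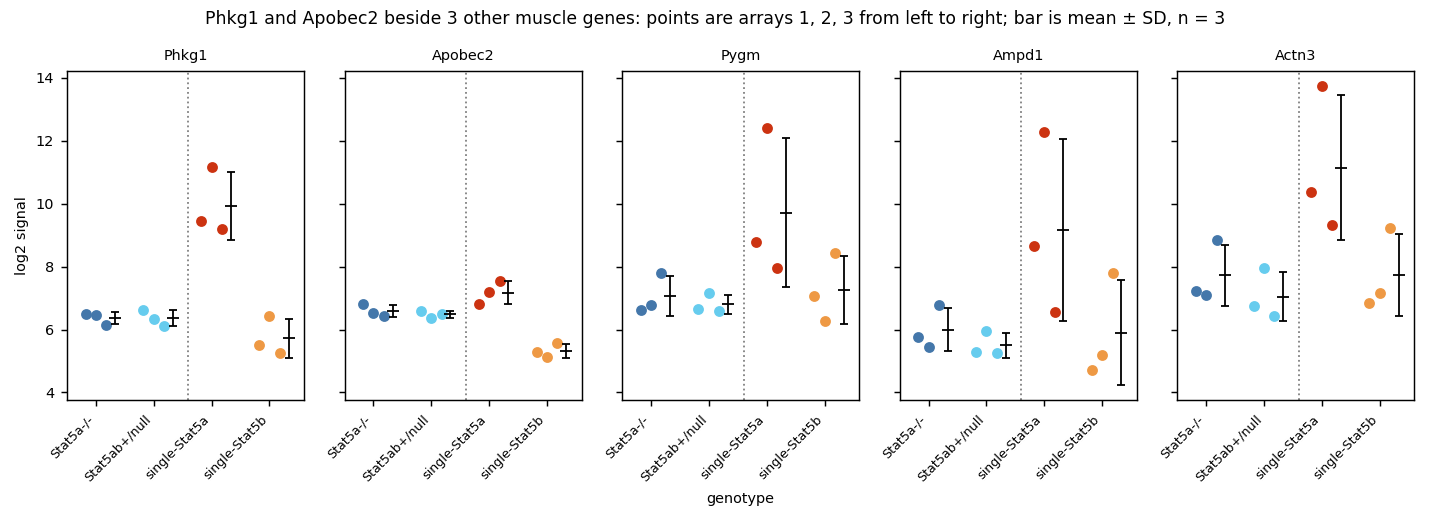
Log2 signal of Phkg1, of Apobec2 from the list of other muscle genes, and of Pygm, Ampd1 and Actn3 by genotype; each point is 1 mouse, the bar is the mean ± SD (n = 3), and the dotted line parts the sets. For Phkg1 and Apobec2 all single-Stat5a points lie above all single-Stat5b points, while for Pygm and Ampd1 single-Stat5b 3 (8.43 and 7.80) lies above single-Stat5a 3 (7.96 and 6.55).

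Most members moved as one across mice. Set against the mean of the other members over the 6 arrays of a set, 27 of 42 genes had a Pearson r above 0.9 in the 2-allele set, 31 in the 1-allele set and 22 in both, where 1.41% and 1.30% of all genes did. The arrays of a set share their dissection, labelling and scale, so these values describe the arrays. Phkg1 stood at -0.51 and 0.69 (2-allele, then 1-allele set), Myh7 at 0.94 and -0.66, Tnnc1 at 0.92 and 0.18, Tpm2 at -0.10 and 0.91, Casq2 at -0.42 and 0.50 and Ldb3 at -0.75 and 0.76. The slow genes Myh7 and Tnnc1 thus tracked the muscle mean in the 2-allele set alone.

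A list of 46 further muscle genes gave the same highest mouse in each set. A probe set was found for 42, of which 34 were highest in single-Stat5a 2 in the 1-allele set and 22 in Stat5a-/- 3 in the 2-allele set. In the 1-allele set the list mean was 8.92 in single-Stat5a 2 and 6.77 in both single-Stat5a 1 and single-Stat5b 3. It was 6.27 to 6.42 in the remaining mice of that set, so single-Stat5b 3 was not a clear second. In the 2-allele set it was 6.59 in Stat5a-/- 3, 6.41 in Stat5ab+/null 2 and 6.21 to 6.29 in the other mice. Between single-Stat5b and single-Stat5a 36 of 42 were below 0, with a median of -0.85, and 1 of the 28 past the filter was called: Apobec2, a muscle member of the APOBEC deaminase family, at -1.85 ± 0.21 (SE, limma adjusted p = 0.000193, lower in 3 of 3 mice). It read 6.80, 7.19 and 7.53 in single-Stat5a and 5.29, 5.12 and 5.56 in single-Stat5b, and so, like Phkg1, did not follow single-Stat5b 3. Unlike Phkg1, Apobec2 peaked in single-Stat5a 3 and not in single-Stat5a 2. Its single-Stat5b values all lay under the filter level of 6.05, so low signal may limit the size of its difference. Of 7 further slow fibre genes 5 were above 0, with a median of 0.03, and of the 6 tested 0 were called by limma and 0 had an unadjusted p under 0.05. Their mean was 7.43 in both single-Stat5a 2 and single-Stat5b 3 and 6.60 to 6.75 in the other 4 mice of the set. Csrp3, a Z-disc protein rich in slow fibres and heart, spread widest and read 9.57 and 8.75 in these 2 mice. Myl2, Myoz2 and Ankrd2 also had their 2 highest values there, and Myl3 was highest in single-Stat5b 3 alone. Myl6b went the other way, at 7.71 and 7.81 against 7.81 to 8.64, and Myh7b was lowest in single-Stat5a 2, at 5.39.

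Markers of other cell types were read in the same arrays. The heart list of 8 genes had a mean of 5.68 to 6.11, and 4 of the 8 peaked in single-Stat5a 2 in the 1-allele set. Of these genes Myh6, Tnnt2, Myl7 and Ryr2 were under the filter level in all 12 arrays, Nppa reached 6.20 and Tnni3 6.87 at most, and Nppb read 5.62 to 7.06. Myl4, a light chain of the atria and of embryonic muscle, read 7.76 to 10.21, highest in single-Stat5a 2.

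Of 8 measured regulators of the muscle lineage, 6 peaked in single-Stat5a 2 within the 1-allele set. Myf6, the factor of mature fibres, read 9.20 there and 4.51 to 6.37 in the other 11 arrays, and Myod1 read 6.63 there and 5.64 to 6.04 elsewhere. Mef2c and Tbx15, both active in further tissues, read 11.24 and 10.06 there. Myog, Myf5 and Pax7 were under the filter level in all 12 arrays. The list of smooth muscle and myoepithelium had a mean of 10.87 to 11.83, and 0 of its 10 genes peaked in single-Stat5a 2 or in Stat5a-/- 3. Actg2, the smooth muscle gamma-actin, was called lower in single-Stat5b (-1.49, limma adjusted p = 0.00825, lower in 3 of 3 mice).

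The B cell list mean, from 9 genes, was 10.96 in Stat5a-/- 3 and 11.41 in Stat5ab+/null 2, the 2 mice with muscle signal in the 2-allele set, and 6.74 to 9.19 in the other 4. In the 1-allele set it was 6.43 in single-Stat5a 2 and 6.85 in single-Stat5b 3, against 6.58 to 7.77 in the other 4. The nerve list mean was highest in these 2 mice (10.91 and 11.13, against 10.30 to 10.71), and lowest in the 2 muscle mice of the 2-allele set (10.23 and 10.39, against 10.69 to 10.89).

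Between single-Stat5b and single-Stat5a, 8 of 9 white adipocyte genes were below 0 (median -0.54, 2 of 9 tested with an unadjusted p under 0.05), as were 5 of 7 endothelial genes (median -0.58, 4 of 7) and 7 of 9 brown adipocyte genes (median -0.38, 1 of 8), with 0 called by limma in these lists. Luminal genes were above 0 in 10 of 12 cases (median 0.33, 1 of 12) and tendon genes in 6 of 7 (median 0.17, 0 of 6), again with 0 called. Skin genes were above 0 in 6 of 10 cases, with a median of 0.05. Of the 5 tested, Cdsn (-6.18) and Krtdap (-1.75) were called lower (limma adjusted p = 2.21e-07 and 0.0281, lower in 3 of 3 mice), Sbsn stood at -1.19, and Krt10 and Lor at 0.19 and 0.81, while Krt1, Krt2, Flg, Dsg1a and Dsc1 were under the filter level in all 12 arrays. The 3' minus 5' signal of beta-actin was 2.42, 2.16 and 3.07 in single-Stat5a 1, 2 and 3 and 3.78, 2.41 and 2.16 in single-Stat5b 1, 2 and 3. It was thus lowest in single-Stat5a 2 and single-Stat5b 3 and highest in single-Stat5b 1, the lowest array for 26 members. Single-Stat5a 1 and single-Stat5b 2 were nearly equal in it, with member means of 8.92 and 7.37. For Gapdh the values were 1.22, 1.32 and 2.80 in single-Stat5a and 3.91, 1.48 and 1.11 in single-Stat5b. The Gapdh difference was thus lowest in single-Stat5b 3 and single-Stat5a 1, and again highest in single-Stat5b 1. The part of these in the muscle differences was not tested.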

How the data were processed

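Total RNA was extracted with Trizol and biotin-labelled cRNA from 6 ug was hybridized to Affymetrix mouse arrays, per the labels' protocols. The deposited values are log2 signals per probe set, made with RMA and Partek per the submitters' processing notes. The sources used here give no version or setting. No probe intensities were used.

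The table held 45101 probe sets: 34958 with 1 gene symbol in the platform's annotation, 932 with several, 9160 with none and 64 controls. Of a gene's probe sets the one of highest mean was used. limma 3.58.1 in R 4.3.3 fitted 1 mean per genotype to 12 arrays, with 2-sided moderated tests and Benjamini-Hochberg adjustment over the 14194 genes past the 30th percentile. The fit was tested on simulated data. The labels do not say whether mice were litter mates, and 3 arrays per genotype limit precision.

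Members, lists and roles were chosen with earlier results of these data known. Values in every array are given for called members, 5 fast and slow pairs, Acta1, Ckm, Mb, Pvalb, Atp2a1, Sln, Ttn, Actn3 and members that peaked in another array than most. Up to 4 called genes of each other list and the 10 genes most like the members are named. The values of Myh1, Myh2 and of further probe sets, the genes beside Phkg1 in its plot and uncalled genes of other lists were added after they were seen. Alternatives were no filter, a 50th percentile filter, quantile normalization, median centring, the mean of probe sets, a trended robust variance, array weights, a fit of 2 groups and each array left out.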

Additional observations from a re-analysis of the deposited data

Results flagged for a closer look

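Phkg1 differed between the 2 contrasts: its signal was lower in single-Stat5b than in single-Stat5a and about equal in Stat5a-/- and Stat5ab+/null, and the difference of these differences was -4.21 log2 units (limma interaction, adjusted p = 0.00467), with the single-allele genotypes apart in 3 of 3 mice. No array is shared between the contrasts, but each contrast lies in an array set of its own. Groups of 3 arrays are too small for a rule on single outlying arrays.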

How the results depend on the processing

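No paired analysis was possible because the labels give no replicate numbers shared between genotypes. Phkg1 stayed past the threshold between the single-allele genotypes under the 20 alternatives that gave a value (-5.82 to -3.51 log2 units, limma adjusted p 1.13e-05 to 0.00215), and in the interaction under 19 of 19. The filter and the choice of probe set were redone with each array left out, so the second Phkg1 probe set entered some of these. With a filter at the 50th percentile 25 members and not Phkg1 were tested, and 0 were called between single-Stat5b and single-Stat5a and 0 in the interaction. With array weights 12 and 7 were called, among 15.7% and 11.2% of all genes. With each array left out, the calls were 1 to 5 and 1 to 1. Signs turned for small differences. Between single-Stat5b and single-Stat5a, these were Tnnt1 (-0.11 with array weights, -0.25 to 0.43 with each array left out), Tnni1 (-0.10 to 0.53), Casq2 (-0.11 to 0.35) and Mb (-0.56 to 0.25), and, with the other muscle genes as a covariate, Ckm (0.40) and Mb (0.49). Between Stat5a-/- and Stat5ab+/null, they were Phkg1 (-0.05 with the mean of probe sets, -0.04 with the covariate, -0.12 to 0.14 with each array left out), Acta1 (-0.22 to 1.88), Ttn (-0.23 to 1.12), Tnnc2 (-0.33 with array weights, -0.97 to 1.59) and Tnnc1 (-0.06 with array weights, -0.23 to 0.40). The median difference of the 42 genes ranged from -2.64 to -0.90 between the single-allele genotypes. The fast minus slow difference ranged from -2.95 to -1.49 there and from -0.52 to 0.63 between the others. The cause of these changes was not tested. Signal near the floor in the 2-allele set and 3 mice per genotype limit what could be seen.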

Other observations

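The genes outside the list whose signal was most like the member mean in both sets, by the lower of 2 Pearson correlations over 6 arrays each, were Phtf2 (0.95), Des (0.93), Myom2 (0.92), Cmya5 (0.92), Ankrd23 (0.90), Krtap10-4 (0.90), Itgb1bp2 (0.90), Srpk3 (0.88), Mlf1 (0.88) and 2310065F04Rik (0.87). Des, the intermediate filament that links muscle Z-discs, read 8.29, 11.13 and 7.99 in single-Stat5a and 8.10, 7.26 and 8.51 in single-Stat5b. Srpk3, a muscle kinase of splicing factors, read 9.66 in Stat5a-/- 3, 10.02 in Stat5ab+/null 2 and 6.06 to 7.58 in the other 4 mice of the 2-allele set, and 8.96 in single-Stat5a 2 and 4.00 to 5.26 in the other 5 of the 1-allele set. Krtap10-4, named for a hair keratin-associated protein, spanned little, from 5.54 to 6.15 in the 1-allele set and 7.23 to 7.90 in the 2-allele set.

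Some genes had probe sets that differed in level and pattern. The second Mb probe set stayed between 5.67 and 6.58 in all 12 arrays. Of the 6 Trdn probe sets the lowest read 3.99 to 5.04, while the one used reached 12.73 in single-Stat5a 2.

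The second Ckm probe set read 6.93 in Stat5a-/- 3, where the one used read 10.82, and 10.77 in single-Stat5a 2, where the one used read 11.61. The second Myh4 probe set read 4.84 in Stat5a-/- 3, where the one used read 9.66, and 10.84 in single-Stat5a 2, where the one used read 14.42.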
